A study of Mus musculus with 8 samples.

Results

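The myosin genes described here are the 54 gene models, of 56324 in the table and 24213 with a symbol, whose symbol starts with Myo, Myh or Myl and a digit, or with Mylk. The rule uses names alone and no measured value. They hold 3 nonmuscle class II heavy chains, 10 smooth and striated muscle heavy chains, 6 regulatory light chains, 5 essential light chains, 4 light chain kinases and 26 models of unconventional myosins. Myo18a is listed with 2 models, so the 54 models stand for 53 genes. RNA of cells labelled spermatids, the haploid germ cells, was read in 4 libraries, and RNA of cells labelled spermatocytes, the meiotic stage before them, in 4 libraries. All 8 libraries, spermatids and spermatocytes alike, are labelled Sam68 -/- on the C57BL/6 strain and came from 12-week-old males, so both groups carry the same labelled deletion of an RNA-binding protein gene and no wild type was compared. The cells were separated by sedimentation at unit gravity (Sta-put), a method that sorts cells by size and enriches a stage without purifying it. The libraries were made from polyadenylated RNA with a stranded kit. Whether replicate libraries come from different animals is not stated, so the p-values reflect the spread among these libraries, part of which may be technical.

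Myosins are motor proteins that bind actin filaments and turn ATP into movement. A conventional, or class II, myosin pairs heavy chains with regulatory and essential light chains and assembles into filaments that contract, and phosphorylation of its regulatory light chain by a light chain kinase switches the nonmuscle and smooth muscle forms on. Unconventional myosins do not contract: they carry vesicles and organelles, tether membranes to actin, or shape actin protrusions such as microvilli and stereocilia. In the seminiferous tubule, actin and myosin work in the intercellular bridges of dividing germ cells, in the contractile myoid cells of the tubule wall, and in the Sertoli cell junctions that hold the spermatid head.

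Total depth ran between 60673309 and 93975960 reads in spermatids and between 49000266 and 78060212 reads in spermatocytes, and 3 reads were worth 2.42 to 4.50 normalized counts. A normalized count is the deposited read count divided by a size factor of its library. Khdrbs1, the gene of Sam68, had 651, 625, 854 and 1129 normalized counts in the spermatid libraries, against 3808, 3421, 4319 and 4985 in the spermatocyte libraries, and the labels do not say which part of the gene is deleted, so these reads check no label. All 9 spermatid markers were called higher in spermatids, with sums of 493768 to 592790.0 in spermatids, against 17761 to 33376 in spermatocytes. Of 9 spermatocyte markers 6 were called lower, with sums of 40219 to 58741 in spermatids, against 235680.0 to 282116 in spermatocytes. Piwil1 alone had 120630 to 166551 in the spermatocyte libraries. Sycp1, Sycp3 and Hormad1 were not called, and each was lowest in spermatocyte library 4, at 1653, 3303 and 1395. The other spermatocyte libraries had 12680 to 26690 for Sycp1, 15595 to 17490 for Sycp3 and 6447 to 9289 for Hormad1. Markers of other testis cells were not at 0 and also moved with the cell type. Of 14 Sertoli cell markers 12 were called lower in spermatids, with sums of 10545 to 14756 in spermatids, against 31708 to 150967 in spermatocytes. Tjp1 of this list was called higher, at 5436 to 8218 in spermatids, against 1862 to 3738 in spermatocytes. Of 9 Leydig cell markers 8 were called lower (558 to 1839 in spermatids, against 4634 to 8549 in spermatocytes). The uncalled Leydig marker, Insl3, was matched through a synonym to a model with the symbol Rlf, which may be another gene. That model had 260.1 to 318 in spermatids, against 220.3 to 369 in spermatocytes, and is part of the Leydig sums. Of 12 macrophage and blood cell markers 10 were called higher in spermatids (3891 to 7849 in spermatids, against 845 to 3288 in spermatocytes). Most of these sums in spermatocytes was the uncalled Mrc1, at 568 to 1114 in spermatids, against 666 to 3091 in spermatocytes. Of the 7 tested of 8 endothelial markers 4 were called higher and 1 lower (1702 to 2022 in spermatids, against 540.0 to 603 in spermatocytes). Of 9 spermatogonial markers 5 were called higher (56641 to 75852 in spermatids, against 38888 to 66208 in spermatocytes). Most of the spermatogonial sums was the uncalled Ddx4, at 63481 in spermatids and 54159 in spermatocytes by the mean. Among those called, Stra8 had 951 to 1983 in spermatids, against 96.2 to 311 in spermatocytes. No marker of these lists was at 0 in all libraries of a cell type. Spermatocyte library 3 stood apart with the highest Sertoli sum.

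Unconventional myosins were called higher in spermatids more often than lower, while class II genes were called in both directions; the difference between the classes was not tested. Of 26 unconventional models, 25 had enough reads to be tested, 12 were higher in spermatids and 2 were lower, with a median log2 fold change of 0.81. Of the 28 class II heavy chains, light chains and kinases, 22 were tested, 5 were higher and 7 lower, with a median of -0.21. Over all members, 47 of 54 were tested (10 or more normalized counts in 4 or more libraries), and 17 were called higher and 9 lower in spermatids (limma, Benjamini-Hochberg adjusted p below 0.05 and a log2 fold change of at least 1 in size). The 36.2% higher lies near the background, since 32.5% of all 28735 tested models were called higher, while the 19.1% lower stands beside 29.8% of all models, and 62.3% of all models were called in one direction or the other. Neither difference from the background was tested. The median over the 47 tested members was 0.04, beside -0.01 over all tested models, and Myo3a alone passed the filter through its spermatid libraries only. In bulk RNA, fewer cells of a type and less RNA per cell cannot be told apart, and this touches every value here. The libraries of the 2 cell types did not overlap for 25 members (53.2% of those tested), beside 66.4% of all tested models. Of all reads, 0.0962% to 0.106% in the spermatid libraries came from members, against 0.121% to 0.167% in the spermatocyte libraries. The 7 members not tested were Myh2, Myh8, Myl2, Myl3, Myl7, Mylk2 and Myo1g, none with a mean above 20.8 normalized counts in a cell type.

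**Figure D1:**
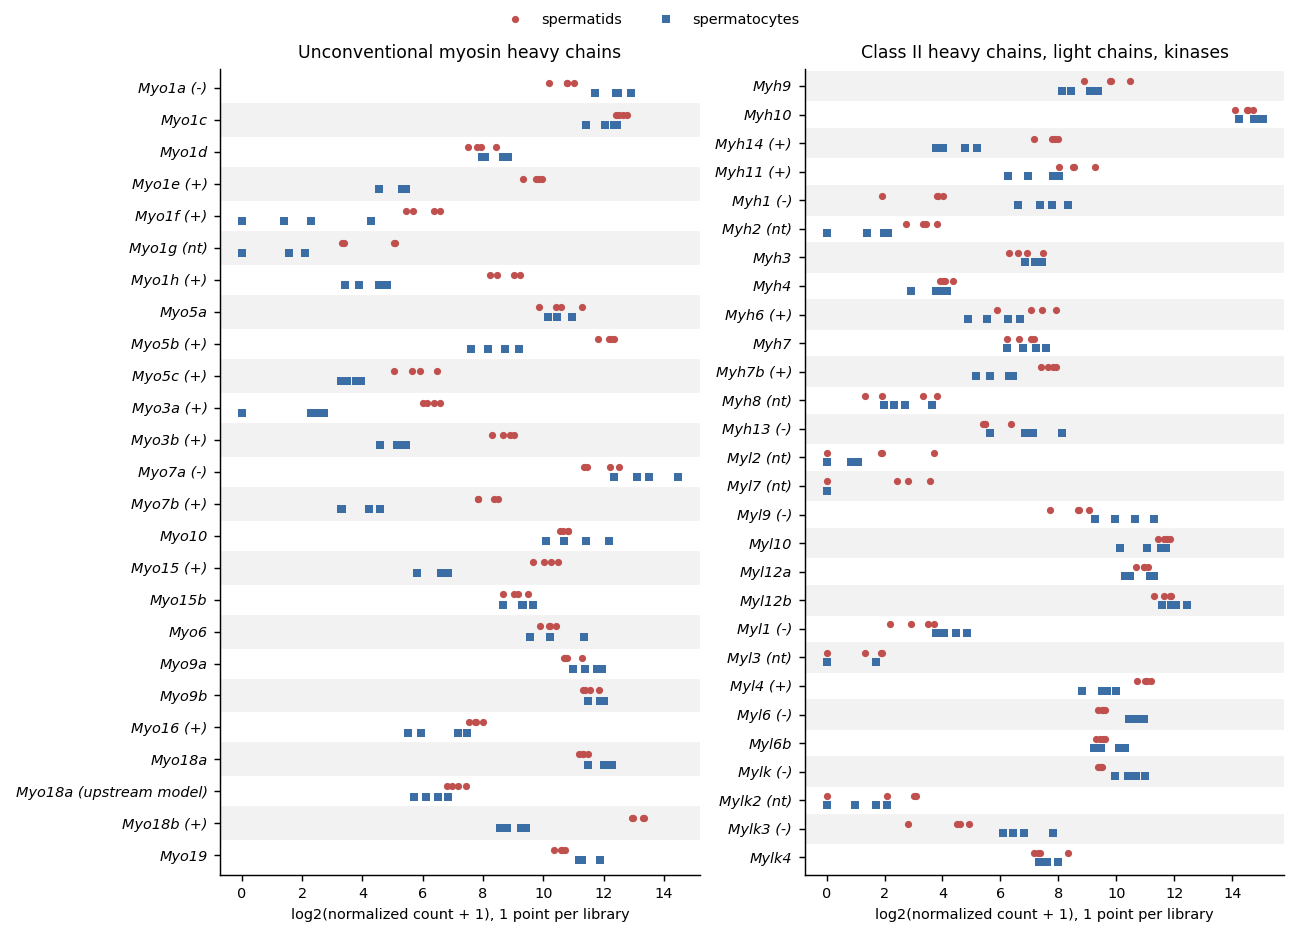
Levels of 53 members as log2(normalized count + 1), 1 point per library, with 4 spermatid libraries (circles) above 4 spermatocyte libraries (squares) in each row; a plus marks members called higher in spermatids, a minus those called lower and nt those not tested. The spermatid points of Myo18b, Myo5b, Myo1e and Myo15 lie far to the right of the spermatocyte points of the same gene, and Myh10 is high in both cell types.

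Promoter windows were read for members with a match, to show what stands before their start sites. Myo5b and Myo7b were left out of this search and not looked up. RefSeq windows (GRCm38.p6) from 250 bases before to 50 after a start site were matched by symbol, within 200 bases of the model's start, for 39 members. Shown are the 180 bases before the start of 3 members that rose in spermatids (Myo1e, Myo15 and Myo3b) and 3 that fell (Myl6, Myl9 and Myo1a), chosen after their values were seen. Capitals mark matches, on either strand, to 4 motifs: the cyclic AMP response element TGACGTCA, known as the site of the CREB and CREM factors, its half-site TGACG, which each full element also contains, the TATA box TATAAA, and the CArG box, the site of serum response factor known from smooth muscle genes.
Myo1e (chr9:70207170-70207349, plus strand): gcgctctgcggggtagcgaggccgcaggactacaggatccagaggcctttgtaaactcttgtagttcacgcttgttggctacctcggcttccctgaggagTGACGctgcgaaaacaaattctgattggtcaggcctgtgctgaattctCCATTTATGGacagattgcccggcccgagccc
Myo15 (chr11:60469159-60469338, plus strand): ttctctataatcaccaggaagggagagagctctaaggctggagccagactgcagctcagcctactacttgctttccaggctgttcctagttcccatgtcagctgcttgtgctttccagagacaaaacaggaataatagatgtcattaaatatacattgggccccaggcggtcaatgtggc
Myo3b (chr2:70038946-70039125, plus strand): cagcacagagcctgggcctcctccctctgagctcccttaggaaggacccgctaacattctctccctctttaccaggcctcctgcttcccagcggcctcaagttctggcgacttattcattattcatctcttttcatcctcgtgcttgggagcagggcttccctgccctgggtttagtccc
Myl6 (chr10:128493887-128494066, minus strand): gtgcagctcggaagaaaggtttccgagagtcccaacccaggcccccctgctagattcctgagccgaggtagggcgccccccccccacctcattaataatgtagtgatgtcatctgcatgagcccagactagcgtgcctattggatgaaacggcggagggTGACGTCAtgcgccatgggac
Myl9 (chr2:156775284-156775463, plus strand): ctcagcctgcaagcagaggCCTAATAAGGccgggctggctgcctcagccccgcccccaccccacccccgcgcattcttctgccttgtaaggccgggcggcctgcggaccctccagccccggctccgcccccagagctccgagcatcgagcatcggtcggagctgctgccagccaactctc
Myo1a (chr10:127705076-127705255, plus strand): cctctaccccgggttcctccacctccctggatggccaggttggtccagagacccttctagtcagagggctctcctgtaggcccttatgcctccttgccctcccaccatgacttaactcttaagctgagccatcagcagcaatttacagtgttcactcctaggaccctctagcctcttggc

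Myl6 was the only one of the 39 matched members with a full cyclic AMP response element, 21 bases before its start, and 1.79% of all 32851 promoter windows hold one. Half-sites stood in 6 of 39 members, beside 20.8% of all windows, and among the matched members that rose only in Myo1e, of 11. The TATA box stood in 8 of 39 members, beside 13.6% of all windows: 2 of 11 that rose (Myh6 and Myo5c), 2 of 8 that fell (Myh1 and Myl1), and 4 others. CArG boxes stood in 5 of 39 members, beside 1.63% of all windows, namely Myo1e, Myh13, Myl9, Myl3 and Myl7. Myo15, Myo3b and Myo1a held none of the 4 motifs in these windows. A match describes letters and not a bound site.

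Among the nonmuscle class II heavy chains, which form the contractile filaments of most cells, Myh14 rose in spermatids and Myh10 stood at a high level in both cell types. Myh14, the heavy chain of myosin IIC, had 220.3, 141, 233 and 250.3 normalized counts in spermatids, against 15.3, 12.8, 35.8 and 26.3 in spermatocytes. Every spermatid library lay above every spermatocyte library (log2 fold change 3.25 ± 0.37, adjusted p = 6.4e-06; fold changes are given with their SE, n = 4 each, and adjusted p from limma). Myh10, the heavy chain of myosin IIB, which the cleavage furrow of many cells uses, had 17509, 26866, 23560.2 and 23223 in spermatids, against 28011, 27333, 19098 and 33785 in spermatocytes. Its libraries overlapped, with spermatid library 1 and spermatocyte library 3 lowest, and it was not called (log2 fold change -0.24 ± 0.21, adjusted p = 0.32). Myh9, the heavy chain of myosin IIA, had 1402, 470.1, 869 and 904 in spermatids, against 348, 281, 659 and 541 in spermatocytes. Its adjusted p passed and its fold change fell just short of the threshold (log2 fold change 0.97 ± 0.35, adjusted p = 0.025), with spermatid library 1 high and spermatid library 2 within the spermatocyte range; it was called with edgeR (1.04) and DESeq2 (1.00), and without spermatid library 2 (1.26), spermatocyte library 3 (1.17) or spermatocyte library 4 (1.08). Per kb of transcript, Myh10 made up 29.5% ± 2.81 of all heavy chain counts in spermatids and 32.4% ± 6.07 in spermatocytes (SD, n = 4 each), the largest share of any heavy chain by the mean in both cell types.

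Of the 10 smooth and striated muscle heavy chains, 8 were tested, 3 rose and 2 fell, most of them at low levels. Over all tested models 32.5% were called higher and 29.8% lower, and the class was not tested against these shares. Myh1, a fast skeletal muscle heavy chain, fell the furthest of all tested members. It had 13.4, 2.8, 15 and 13.1 normalized counts in spermatids, against 96.7, 163, 323 and 218 in spermatocytes, with no overlap (log2 fold change -4.12 ± 0.52, adjusted p = 1.5e-05). The spermatocyte libraries of Myh1 stood in the order of their Sertoli cell markers, lowest in library 1 and highest in library 3, and without libraries 3 and 4 the log2 fold change was -3.59; with 8 added in place of 1 it was -3.39. Myh13, the extraocular muscle chain, had 43, 81.3, 43.5 and 41.4 in spermatids, against 48.4, 138, 279.6 and 114 in spermatocytes. The groups overlapped for Myh13 (log2 fold change -1.26 ± 0.47, adjusted p = 0.03), and the call was lost without spermatocyte library 2 (-1.19) or 3 (-0.86), and without spermatid library 1, 3 or 4 (-1.18, -1.19 and -1.17). Myh7b, an ancient relative of the cardiac chains, had 242, 169, 198 and 223 in spermatids, against 49.2, 34.3, 77.2 and 85.6 in spermatocytes, and rose with no overlap (log2 fold change 1.82 ± 0.33, adjusted p = 0.00029). Myh11, the heavy chain of smooth muscle, had 618, 262, 359 and 373 in spermatids, against 224, 124, 261 and 76.5 in spermatocytes. The lowest spermatid library of Myh11 lay barely above the highest spermatocyte library (log2 fold change 1.32 ± 0.40, adjusted p = 0.0099), and without spermatocyte library 4 the log2 fold change was 0.99, short of the threshold. Myh6, the alpha cardiac chain, had 170.2, 57.9, 239 and 132 in spermatids, against 45.1, 28.5, 74.9 and 102 in spermatocytes. Its groups overlapped (log2 fold change 1.23 ± 0.48, adjusted p = 0.037), and the call was lost without spermatid library 1, 3 or 4 (1.11, 0.95 and 1.23) or spermatocyte library 1 or 2 (1.13 and 0.91). Myh3 (-0.38), Myh4 (0.40) and Myh7 (-0.19) were not called, at means between 12.6 and 147 normalized counts. These chains are near-identical neighbours of each other, on chromosome 11 for Myh1, Myh2, Myh3, Myh4, Myh8 and Myh13 and on chromosome 14 for Myh6 and Myh7, so reads may be split between them. Antisense genes also overlap exons of Myh1 (515 bases), Myh2 (237 bases), Myh6 (114 bases) and Myh7, and since the strand setting of the counting is not given in the sources used here, their reads cannot be told apart from those of the myosins.

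Muscle markers stood beside these chains as follows. Of 10 peritubular myoid and smooth muscle markers, 7 were called higher in spermatids and none lower, with sums of 19140.4 to 27430.3 in spermatids, against 1392 to 2097 in spermatocytes. Of the 3 uncalled, Tagln (log2 fold change -0.61, limma adjusted p = 0.041) and Synpo2 (-0.66, limma adjusted p = 0.043) were lower in spermatids but short of the fold threshold. Smtn stood at 0.13. Most of the spermatid sum was Actg2, the enteric smooth muscle actin, at 18846 ± 3318 in spermatids and 657 ± 87.1 in spermatocytes (SD, n = 4 each), and Pln, which restrains the calcium pump of muscle, at 2669 ± 742 in spermatids and 74 ± 19.1 in spermatocytes. Acta2, the defining actin of myoid cells, had 625, 193, 356 and 279.7 in spermatids, against 170.1, 50.05, 314 and 51.4 in spermatocytes, and like Myh11 it was highest in spermatid library 1. Of 14 striated muscle markers, 9 were tested, 5 higher and 2 lower, with sums of 5164 to 8056 in spermatids, against 2788 to 3716 in spermatocytes. Most of these sums was Ttn, at 3746 in spermatids and 1738 in spermatocytes by the mean, and Tnni3, at 3098 in spermatids and 1030 in spermatocytes. Ckm, Tnnt1 and Tnni1 were also called higher, none with a mean above 29.5 in a cell type. The 2 called lower were Neb (-2.19) and Acta1 (-1.57). The part of these cells in the muscle myosin values was not tested.

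The light chains split by gene, with Myl4 up and Myl6, Myl9 and the scarce Myl1 down in spermatids. Myl4, an essential light chain known from atrial and embryonic muscle, had 1681, 2368, 2141 and 2037 normalized counts in spermatids, against 811, 733, 454 and 1022 in spermatocytes, without overlap (log2 fold change 1.49 ± 0.24, adjusted p = 0.00014). Myl6, the essential light chain of nonmuscle and smooth muscle myosin, had 725, 775, 658 and 749 in spermatids, against 1588, 1379.8, 1808 and 1966 in spermatocytes. Its groups did not overlap (log2 fold change -1.20 ± 0.18, adjusted p = 6.3e-05), and the spermatid libraries lay close together. Myl6b, its close relative, had 735, 687, 779 and 621 in spermatids, against 706, 599.6, 1271 and 1077 in spermatocytes, with overlap and no call (log2 fold change -0.31 ± 0.25, adjusted p = 0.28). Myl1, the skeletal essential light chain, had 3.58, 10.3, 12 and 6.53 in spermatids, against 21, 27.5, 15.7 and 12.6 in spermatocytes, values of a few reads in some libraries. The spermatid libraries of Myl1 all lay below the spermatocyte ones (log2 fold change -1.20 ± 0.44, adjusted p = 0.027), and leaving out spermatid library 1 (-0.91) or 4 (-1.15), or spermatocyte library 1 (-1.14) or 2 (-1.02), ended the call.

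Among the regulatory light chains, the subunits that light chain kinases phosphorylate, Myl9 was called and the other 3 tested were not. Myl9, the chain of smooth muscle and contractile nonmuscle cells, had 529, 208, 411 and 417 normalized counts in spermatids, against 608, 993, 2490.3 and 1604 in spermatocytes. It fell with no overlap (log2 fold change -1.75 ± 0.41, adjusted p = 0.0021), and its highest library was spermatocyte library 3. Myl12a had 2192, 1649, 1998 and 1986 in spermatids, against 1263, 1405, 2269 and 2490.0 in spermatocytes, and Myl12b, its neighbour and near twin in nonmuscle cells, had 2499.6, 3174, 3782 and 3705 in spermatids, against 3073, 3734, 4277 and 5523 in spermatocytes. Neither was called (0.13 ± 0.24 for Myl12a and -0.32 ± 0.21 for Myl12b on the log2 scale), and a Myl12b transcript shares 462 exonic bases with the Myl12a model on the same strand, so their reads may be mixed. Myl10 had 3435, 3679, 3234 and 2800.4 in spermatids, against 2973, 2141, 1109 and 3344 in spermatocytes, with spermatocyte library 3 far below the rest and no call (log2 fold change 0.57 ± 0.30, adjusted p = 0.1; 0.24 without that library). Per kb, Myl10 held 36.7% ± 3.52 of light chain counts in spermatids and 27.8% ± 10.8 in spermatocytes, more by the mean than any other light chain. Myl4 held 22.1% ± 2.45 in spermatids and 8.5% ± 2.33 in spermatocytes, Myl6 held 4.44% ± 0.383 in spermatids and 10.7% ± 0.882 in spermatocytes, and Myl9 held 3.56% ± 1.3 in spermatids and 13.1% ± 7.26 in spermatocytes (SD, n = 4 each). The share of Myl10 was 12.9% in spermatocyte library 3, where Myl9 held 23.5%, while the other spermatocyte libraries had 29.7% to 38.8% for Myl10. Myl4 takes its length from its longest coding transcript here, and with all annotated exons merged its share was 7.50% in spermatids and 2.56% in spermatocytes.

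None of the 3 tested light chain kinases was called higher in spermatids, and 2 were called lower. These counts stand beside 32.5% of all tested models called higher and 29.8% called lower. Mylk, the kinase of smooth muscle and nonmuscle myosin, had 663, 733, 691 and 709.6 normalized counts in spermatids, against 1626, 1346, 983 and 2041 in spermatocytes. It fell with no overlap (log2 fold change -1.05 ± 0.23, adjusted p = 0.0011), by hardly more than the threshold, and without spermatocyte library 1 (-0.99) or 4 (-0.89) it was not called. An unnamed model inside Mylk was also called lower, at 78.5 to 204 in spermatids, against 687 to 1340.3 in spermatocytes, and 2 antisense genes overlap Mylk exons. Of these 2 genes, Gm21691 was called lower (-1.82) and E130310I04Rik was not called (-0.38). Mylk3, the cardiac kinase, had 23.3, 21.5, 6 and 29.4 in spermatids, against 66.9, 85.4, 221 and 112 in spermatocytes, and fell with no overlap (log2 fold change -2.58 ± 0.51, adjusted p = 0.00062). Mylk4 had 143 to 323 in spermatids, against 159.8 to 253 in spermatocytes, and was not called (-0.08).

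**Figure D2:**
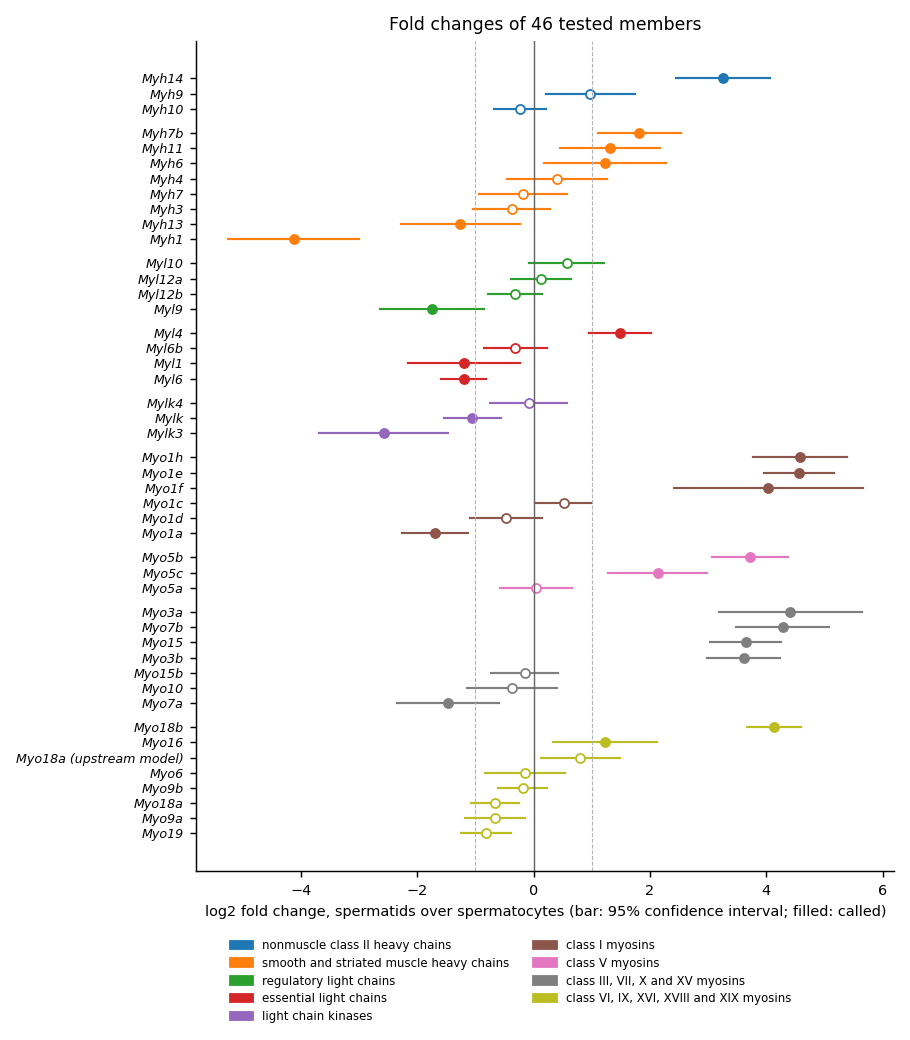
Log2 fold changes of 46 tested members, spermatids over spermatocytes, grouped by class, with 95% confidence intervals from limma; filled points were called and dashed lines mark a log2 fold change of 1 in either direction. Class I, III, V, VII, XV and XVIII members reach beyond 3.5, and Myh1 lies lowest at -4.12.

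Class I myosins are single-headed motors that link membranes to actin, and Myo1e, Myo1h and Myo1f rose in spermatids while Myo1a fell. Myo1e (mm10 chromosome 9, 70207348 to 70400067), which acts in endocytosis and in the kidney podocyte, had 648, 917, 1003 and 865 normalized counts in spermatids, against 38.7, 40.2, 22.4 and 42.2 in spermatocytes. No library of one cell type came near the other (log2 fold change 4.56 ± 0.28, adjusted p = 3.2e-08); 2 tested unnamed models that lie inside Myo1e were called higher too, at up to 426 normalized counts in spermatids. Myo1h (chromosome 5, 114314941 to 114364576) had 302, 355, 522 and 601 in spermatids, against 13.7, 9.81, 22.4 and 27.4 in spermatocytes (log2 fold change 4.57 ± 0.37, adjusted p = 3.4e-07). Its exons overlap those of Kctd10 on the opposite strand by 1530 bases, and Kctd10 had 2270.3 to 3921 in spermatids, against 1277 to 2425 in spermatocytes, and was not called. Myo1f, known from myeloid blood cells, had 94.9, 50.5, 42 and 82.7 in spermatids, against 1.61, 3.93, 0 and 18.3 in spermatocytes, and rose with no overlap (log2 fold change 4.03 ± 0.74, adjusted p = 0.00036). Its spermatocyte values are a few reads in most libraries, and its log2 fold change was 2.54 with 8 added in place of 1, 3.37 without spermatocyte library 3 and 4.79 without spermatocyte library 4, called in each case. Myo1g, a blood cell relative below the filter, had 32.2, 9.35, 9.01 and 32.7 in spermatids, against 3.22, 1.96, 0 and 0 in spermatocytes. Both followed the macrophage and blood cell markers, whose mean log2 level was 8.64, 7.81, 7.55 and 8.4 in the spermatid libraries, against 4.32, 3.93, 4.25 and 4.5 in the spermatocyte libraries: spermatid libraries 1 and 4 were highest in each. The part of blood cells in these values was not tested.

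Myo1a, the myosin of intestinal brush border microvilli, had 1164, 2059.7, 1755 and 1756 normalized counts in spermatids, against 5755, 5401, 3386 and 7655 in spermatocytes. The fall was clear of the replicate spread (log2 fold change -1.69 ± 0.26, adjusted p = 7.4e-05), and spermatocyte library 3, with its high Sertoli markers, was the lowest of the spermatocyte libraries. Per kb, Myo1a made up 4.92% ± 0.738 of heavy chain counts in spermatids and 15% ± 3.72 in spermatocytes. Myo1c, a widely expressed motor that helps bring vesicles to the cell surface, had 5473, 7052, 6428 and 5784 in spermatids, against 5170.0, 4248, 2729.6 and 5629.6 in spermatocytes, with overlap and no call (log2 fold change 0.52 ± 0.22, adjusted p = 0.054). Its share per kb was 13.3% ± 0.849 in spermatids and 8.8% ± 2.37 in spermatocytes. Myo1d, at 180.4 to 343 in spermatids, against 249.8 to 453 in spermatocytes, was not called (-0.47).

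Class V myosins walk along actin with vesicles and organelles as cargo, and Myo5b and Myo5c rose in spermatids while Myo5a was not called. Myo5b, the partner of Rab11 on recycling endosomes, had 3622, 4602, 5152 and 4888 normalized counts in spermatids, against 193, 286, 584 and 420.1 in spermatocytes. The groups were far apart (log2 fold change 3.73 ± 0.30, adjusted p = 3.3e-07), and Myo5b held 6.84% ± 0.501 of heavy chain counts per kb in spermatids and 0.51% ± 0.229 in spermatocytes. A gene model that overlaps the Myo5b locus, 1700120E14Rik, was called higher as well, at 2191 to 3415 in spermatids, against 57 to 78.5 in spermatocytes. Myo5c, known from gland epithelia, had 32.2, 48.6, 88.6 and 58.8 in spermatids, against 12.9, 8.83, 14.5 and 10.3 in spermatocytes (log2 fold change 2.13 ± 0.39, adjusted p = 0.00034). Myo5a, the carrier of melanosomes in pigment cells, had 2488, 929.8, 1386 and 1537 in spermatids, against 1133, 1411, 1996 and 1392 in spermatocytes. Spermatid library 1 was highest and spermatid library 2 lowest of all 8 for Myo5a, and no difference was called (log2 fold change 0.04 ± 0.28, adjusted p = 0.91).

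Classes III, VII, X and XV share a life in actin protrusions, and mutations of several of their genes cause deafness. Of 7 members 4 rose (Myo3a, Myo3b, Myo7b and Myo15), and Myo7a fell, beside 32.5% of all tested models called higher and 29.8% called lower. Myo15, the motor that builds hair cell stereocilia together with whirlin, had 1440.1, 810.2, 1037 and 1228 normalized counts in spermatids, against 113, 55, 96.2 and 97 in spermatocytes (log2 fold change 3.65 ± 0.28, adjusted p = 2.3e-07). Myo3b, a motor with its own kinase domain, had 315, 471, 402 and 524 in spermatids, against 42.7, 37.3, 34.7 and 22.8 in spermatocytes (log2 fold change 3.61 ± 0.29, adjusted p = 3.1e-07). Its partner in stereocilia, Myo3a, had 63.6, 70.1, 94.6 and 82.7 in spermatids, against 5.64, 3.93, 4.47 and 0 in spermatocytes (log2 fold change 4.41 ± 0.56, adjusted p = 1.7e-05). The spermatocyte values of Myo3a are a few reads, so its fold change depends on the added 1: it was 2.91 with 8 added, and 3.79 without spermatocyte library 4. Myo7b, which anchors the tip links of intestinal microvilli, had 227, 229, 359 and 329.8 in spermatids, against 17.7, 8.83, 8.95 and 22.8 in spermatocytes (log2 fold change 4.28 ± 0.37, adjusted p = 5.6e-07). For all 4, every spermatid library exceeded every spermatocyte library.

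Myo7a, the Usher syndrome myosin of hair cells and retina, which in the testis is known from Sertoli cells, had more counts per kb than Myo7b in both cell types and moved the other way. It had 2582, 4793, 5847 and 2793 normalized counts in spermatids, against 5179.7, 8745, 22699 and 11652 in spermatocytes. The ranges overlapped (log2 fold change -1.47 ± 0.40, adjusted p = 0.0056), and spermatocyte library 3 was far above the rest. Sertoli cell markers had a mean log2 level of 7.7, 6.72, 7.61 and 7.69 in the spermatid libraries, against 9.06, 9.61, 11.1 and 9.99 in the spermatocyte libraries, and the 4 spermatocyte libraries stood in the same order for Myo7a. The spermatid libraries did not: library 1, with the highest Sertoli mean, had the lowest Myo7a (2582), and library 2, with the lowest, had 4793. Without spermatocyte library 3 the log2 fold change of Myo7a was -1.10, and without spermatocyte libraries 3 and 4 together it was -0.84 and not called. The part of Sertoli cells in this fall was not tested. Per kb, Myo7a held 4.03, 6.11, 7.35 and 3.76% of heavy chain counts in the spermatid libraries, against 7.1, 11.8, 29.1 and 12% in the spermatocyte libraries. Myo10, the motor at the tips of filopodia, had 1628, 1501, 1818 and 1827 in spermatids, against 1086, 1659, 4591 and 2731 in spermatocytes. It too was highest in spermatocyte library 3 and was not called (log2 fold change -0.37 ± 0.36, adjusted p = 0.37), and without spermatocyte libraries 3 and 4 its log2 fold change was 0.33. The spermatocyte libraries stood in the order of the Sertoli markers for 8 of 47 tested members (17%), beside 9.67% of all tested models: Myo7a, Myo10, Myl9, Mylk3 and Myh1, the uncalled Myo6 and Myo1d, and Myo5b, which rose. The log2 fold changes without libraries 3 and 4 were -1.07 for Myl9 and -2.05 for Mylk3, both still called; the part of Sertoli cells in these values was not tested either. Myo15b, a relative of Myo15, had 400.3, 726, 569 and 516 in spermatids, against 619.8, 646, 404 and 807 in spermatocytes, and was not called (-0.15).

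**Figure D3:**
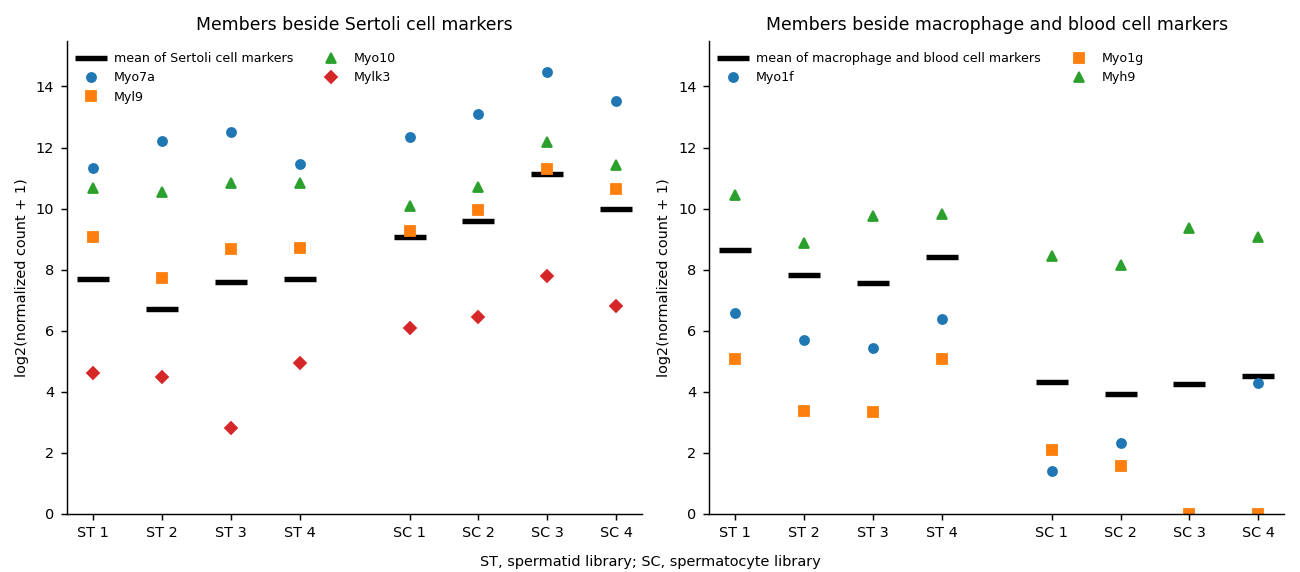
Log2(normalized count + 1) of 7 members, chosen after their values were seen, beside the mean of 14 Sertoli cell markers (left) and of 12 macrophage and blood cell markers (right), 1 point per library, with spermatid libraries (ST) left of spermatocyte libraries (SC). Myo7a, Myl9, Myo10 and Mylk3 are highest in spermatocyte library 3, where the Sertoli mean is 11.1, and Myo1f, Myo1g and Myh9 are highest in spermatid library 1 or 4.

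Among the remaining unconventional myosins, Myo18b rose most and had the highest count per kb in spermatids of all heavy chains called higher. Myo18b (chromosome 5, 112688876 to 112896363), needed for the sarcomeres of striated muscle, had 7936, 8124, 10381 and 10158 normalized counts in spermatids, against 687, 379.8, 444 and 612 in spermatocytes, 9149.6 ± 1299 in spermatids and 531 ± 143 in spermatocytes by the mean (SD, n = 4 each). The change was 17.2-fold by the means and far beyond the spread (log2 fold change 4.13 ± 0.22, adjusted p = 8.2e-09). Per kb, Myo18b held 11.2% ± 1.3 of heavy chain counts in spermatids and 0.602% ± 0.174 in spermatocytes. An antisense gene, 1700095B10Rik, overlaps 248 exonic bases of Myo18b and was called higher as well, at 4224 to 5107 in spermatids, against 99.3 to 121 in spermatocytes. Myo18a, a relative that links Golgi membranes to actin, had 2320.5, 2858, 2539 and 2549 in spermatids, against 4502, 4169, 2887 and 4969 in spermatocytes. All spermatid libraries of Myo18a lay below the spermatocyte libraries, yet the difference was under the fold threshold (log2 fold change -0.66 ± 0.19, adjusted p = 0.008). A second, upstream model of Myo18a, at 112 to 171 in spermatids, against 51.4 to 114 in spermatocytes, was not called (0.81). Myo16 had 183, 217, 210.2 and 253 in spermatids, against 176, 59.9, 44.7 and 142 in spermatocytes. Spermatid libraries of Myo16 lay just above the highest spermatocyte library (log2 fold change 1.23 ± 0.41, adjusted p = 0.017), and the call was lost without spermatocyte library 2 (1.04) or 3 (0.90).

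Myo19, which moves mitochondria, had 1301, 1574, 1692 and 1532 normalized counts in spermatids, against 2369, 2329, 2485 and 3773 in spermatocytes. It did not overlap and missed the fold threshold (log2 fold change -0.82 ± 0.20, adjusted p = 0.0024). Znhit3 overlaps 277 exonic bases of Myo19 and Pigw 106, both on the opposite strand. Znhit3 had 2404 to 3718 in spermatids, against 3912 to 7915 in spermatocytes, and was called lower (-1.13), while Pigw was not called (-0.89). Myo9a had 1754, 2476, 1649.8 and 1675 in spermatids, against 3556, 3984, 2021 and 2664 in spermatocytes, and Myo9b had 3719, 2568, 2978 and 2695 in spermatids, against 2879, 2841, 3762 and 4164 in spermatocytes. Both are motors that carry a domain that switches off small GTPases, and neither was called (log2 fold change -0.67 ± 0.23, adjusted p = 0.022 for Myo9a; log2 fold change -0.19 ± 0.19, adjusted p = 0.4 for Myo9b). Myo6, the myosin that walks toward the opposite filament end and is known in Drosophila for its role in separating sperm, had 953, 1179, 1363 and 1194 in spermatids, against 758, 1184, 2611 and 1198 in spermatocytes, without a call (log2 fold change -0.15 ± 0.31, adjusted p = 0.67). Its highest library was spermatocyte library 3, and without that library the log2 fold change was 0.18. The 5 uncalled members whose adjusted p passed, and which therefore missed a call by the fold threshold alone, were Myh9, Myo9a, Myo18a with its upstream model, and Myo19.

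**Figure D4:**
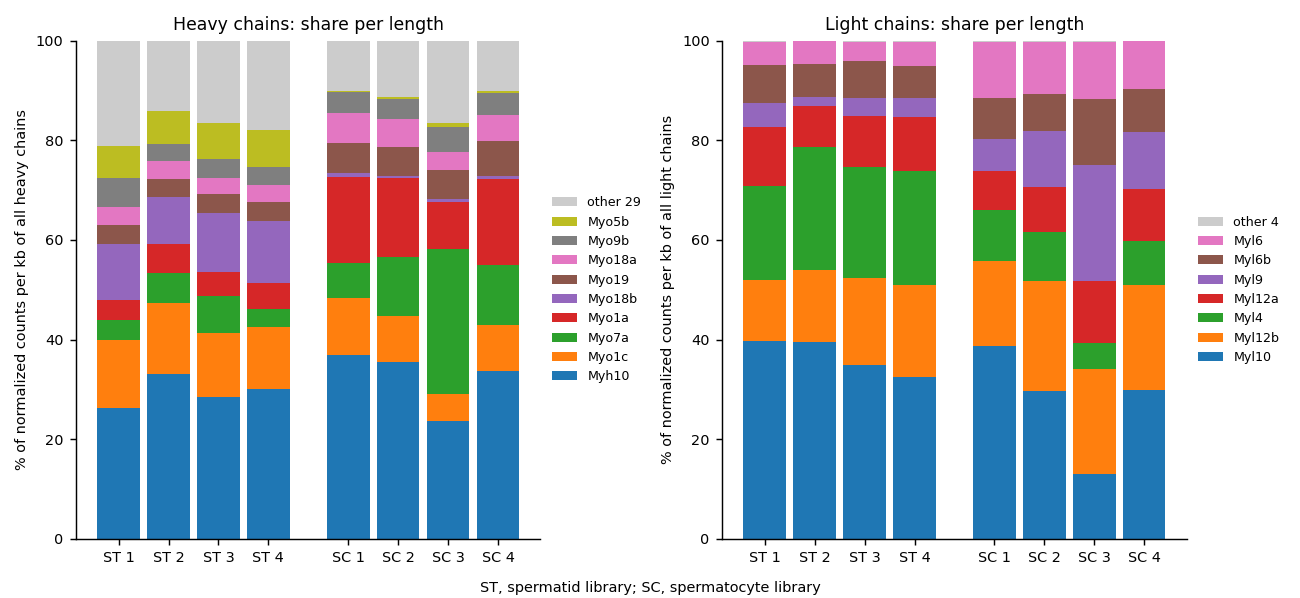
Shares of normalized counts per kb among 38 heavy chains (left) and 11 light chains (right), as stacked bars, 1 bar per library, with spermatid libraries (ST) left of spermatocyte libraries (SC); grey holds the remaining genes. Myo18b and Myo5b held 11.2% and 6.84% in spermatids by the mean, against 0.602% and 0.51% in spermatocytes, and Myo7a reaches 29.1% in spermatocyte library 3.

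Related genes were also compared within libraries, as the log2 ratio of their normalized counts with 1 added to each, so the scaling of a library nearly cancels for abundant genes and the added 1 weighs on genes with few reads. Of 15 pairs, 14 could be tested, with an exact two-sided permutation test over 4 against 4 libraries whose smallest p is 0.0286. After Benjamini-Hochberg adjustment over the 14 pairs no adjusted p was below 0.05, and 8 pairs reached the smallest p with an adjusted p of 0.05. No pair could pass, however large its shift, unless more than 8 pairs reached the smallest p. No conclusion is therefore drawn from the absence of a pass. In these 8 pairs the ratios of the 2 cell types did not overlap. The largest shifts were toward Myo7b over Myo7a (5.75 on the log2 scale, spermatids minus spermatocytes), Myo18b over Myo18a (4.80), Myo15 over Myo10 (4.02) and Myo5b over Myo5a (3.69). Myh14 over Myh9 shifted by 2.28, Myo5c over Myo5a by 2.09, Mylk4 over Mylk by 0.97 and Myl6b over Myl6 by 0.89. With 8 added in place of 1, the shift was 5.20 for Myo7b over Myo7a, 1.63 for Myo5c over Myo5a and -1.78 for Myo1f over Myo1e, and no pair passed. The ratios of Myh10 to Myh9 (-1.21) and Mylk3 to Mylk (-1.53) overlapped between the cell types, each with an exact permutation p of 0.0571 and an adjusted p of 0.0727. Myl12b to Myl12a (-0.45), Myo9b to Myo9a (0.48) and Myo1f to Myo1e (-0.53) overlapped as well, with adjusted exact permutation p of 0.1, 0.277 and 0.629.

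**Figure D5:**
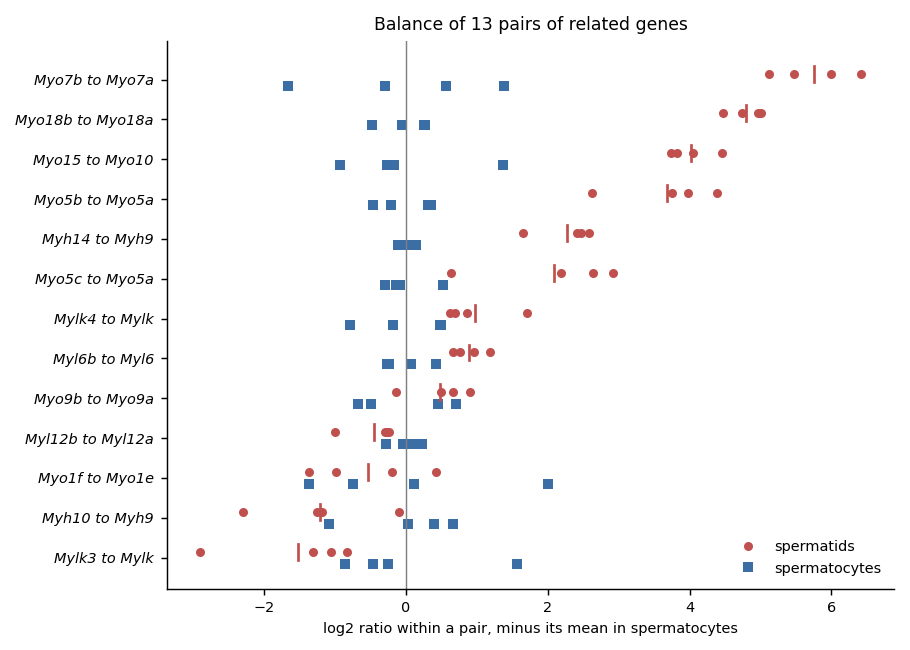
Log2 ratio of the first to the second gene (each normalized count + 1) of 13 tested pairs in each library, minus the pair's mean ratio in spermatocytes; circles are spermatid libraries (upper, with a bar at their mean) and squares spermatocyte libraries. The pairs at the top, Myo7b to Myo7a and Myo18b to Myo18a, shift by 5.75 and 4.80.

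Genes that act on myosins were followed in 3 lists. Their counts stand beside 32.5% of all tested models called higher and 29.8% called lower, and no list was tested against these shares. The first list holds 26 genes upstream of the light chains: kinases, calmodulins, the small GTPases Rhoa, Rhob and Rhoc, and subunits and other regulators of myosin phosphatase. All were tested, 6 rose and 7 fell in spermatids, with a median log2 fold change of -0.40 beside -0.01 over all tested models. The largest rises were Calml3, a calmodulin-like protein (log2 fold change 3.86 ± 0.37, adjusted p = 1.4e-06), and Dapk1, a death-associated kinase (log2 fold change 1.70 ± 0.39, adjusted p = 0.0018). The largest falls were Calm2, one of 3 calmodulin genes, at 9187 ± 1917 in spermatids and 93539 ± 17285 in spermatocytes (log2 fold change -3.35 ± 0.21, adjusted p = 3.3e-08), and Cdc42bpb, an MRCK kinase, which was highest in spermatocyte library 3 (log2 fold change -1.74 ± 0.34, adjusted p = 0.00061; -1.06 without spermatocyte libraries 3 and 4). Ppp1r12a (-1.21) and Ppp1r12c (-1.11), targeting subunits of myosin phosphatase, and Ppp1cb (-1.29), its catalytic subunit, fell, while Mprip (1.17), which binds myosin phosphatase, and Rock1 (1.13) rose. The other targeting subunit, Ppp1r12b (0.02), and the other Rock kinase, Rock2 (0.46), were not called; these 7 were chosen after their values were seen. With equal total reads neither rise was called (0.73 for Mprip and 0.69 for Rock1), and the calls were also lost without spermatocyte library 3 for Mprip (0.995) and without spermatocyte library 4 for Rock1 (0.77). Mprip was abundant, at 73351 ± 9362 in spermatids and 33332 ± 8738 in spermatocytes (SD, n = 4 each).

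Of 22 myosin folding and filament partners, 21 were tested, 5 rose and 2 fell, with a median of 0.26. The shares of all tested models were 32.5% higher and 29.8% lower. Limch1, an activator of nonmuscle myosin II in human cells, had 8049.5, 11668, 11037 and 10719.6 normalized counts in spermatids, against 319, 411, 277 and 241 in spermatocytes (log2 fold change 5.06 ± 0.21, adjusted p = 1.5e-09), a larger change than that of any myosin. Cald1, caldesmon, was the second rise (log2 fold change 2.33 ± 0.31, adjusted p = 2.7e-05). Smyd1, which in muscle helps myosin fold (log2 fold change -1.83 ± 0.26, adjusted p = 4.7e-05), and Anln, anillin of the cleavage furrow (log2 fold change -1.25 ± 0.17, adjusted p = 2.6e-05), were the 2 that fell. Unc45b, a myosin chaperone of striated muscle named after its values were seen, had 535 to 756 in spermatids, against 195 to 439 in spermatocytes, and just missed the threshold (log2 fold change 0.99 ± 0.27, adjusted p = 0.0059). It was called with TMM scaling (1.01), and without spermatid library 1 (1.09), spermatocyte library 1 (1.14) or spermatocyte library 4 (1.12).

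Of 34 cargo and membrane partners of unconventional myosins, 33 were tested, 13 rose and 9 fell, with a median of 0.29. These counts lie beside 32.5% of all tested models called higher and 29.8% called lower. Ndp, the untested gene, which encodes norrin and was listed by mistake for the similarly named autophagy receptor, was at 0 in all 8 libraries. The largest rises were Dab2, the adaptor of Myo6 in endocytosis (log2 fold change 4.52 ± 0.37, adjusted p = 3.5e-07), and Spire1, an actin nucleator that binds class V myosins (log2 fold change 3.93 ± 0.36, adjusted p = 8.9e-07). Dab2 is also a macrophage gene, and like the macrophage markers it was highest in spermatid libraries 1 and 4, at 506, 281, 317 and 661 in spermatids, against 12.9, 11.8, 23.5 and 24 in spermatocytes; the part of blood cells was not tested. The largest falls were Eps8, the cargo of Myo15 in stereocilia (log2 fold change -2.42 ± 0.36, adjusted p = 5.5e-05), and Anks4b, which joins Myo7b in the microvillar complex (log2 fold change -2.35 ± 0.41, adjusted p = 0.00021). Partners of class VII myosins did not move as one: Cdh23 (3.01), Pcdh15 (1.83), Ush1c (2.23), Ush1g (1.28) and Cdhr2 (3.14) rose, and Cdhr5 (-1.21) and Anks4b fell. The call of Cdhr5 was lost without spermatid library 2 or 3 or spermatocyte library 1 or 4, at -0.89 without the last, and that of Ush1g was lost with equal total reads (0.85). Cdh23, cadherin of the hair cell tip link, had 8367, 12567, 13940.3 and 12359.9 in spermatids, against 811, 1064, 2759 and 1814 in spermatocytes. Whrn, whirlin, the partner of Myo15, had 2553 to 3705 in spermatids, against 1404 to 1769.8 in spermatocytes, and was not called (0.96). Whrn was called without spermatid library 1 (1.06) or spermatocyte library 1 (1.01). Eps8 and Espn (-1.38), which bundles actin in stereocilia, fell and were highest in spermatocyte library 3. Without spermatocyte libraries 3 and 4 the log2 fold change of Eps8 was -2.00, while that of Espn was -0.89 and no longer called (-1.06 without library 3 alone). Without these 2 libraries 6 members of the list were called lower in place of 9. For Myo5, Rab27b had 21.5 to 22.9 in spermatids, against 0 to 2.42 in spermatocytes, so it passed the filter through its spermatid libraries only and its log2 fold change, 3.44, was 1.70 with 8 added in place of 1. Rab27a (-1.37) and Rab11b (-1.32) fell, and Rab11a (0.10) and Mlph (0.29) were not called. The class VII, XV and V partners named here beyond the largest rises and falls were chosen after their values were seen.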

How the data were processed

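Per the labels, the libraries hold polyadenylated RNA of spermatids and spermatocytes. The authors deposited 1 table of signal per gene model: read counts divided by a DESeq size factor of each library, on mm10 coordinates per the file headers. Per the submitters' processing notes, the tools were STAR 2.4.0, DESeq, SAMtools, Picard and FastQC and the build was mm10. How reads were counted, and whether by strand, is not given in the sources used here. The table has 8 further columns of per-sample values, not used here. In every library 100% of the values above 0 were whole multiples of a step (within 10% of it), and dividing by the step gave the reads. No 2 libraries of a group agreed within sampling noise (chi-square per degree of freedom 12.4 to 289). Floors of 3 reads cover counting error only.

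Models reaching 10 normalized counts in 4 or more of 8 libraries were tested with limma 3.58.1 (R 4.3.3; trend and robust) on log2(normalized count + 1), so fold changes of low genes are understated, with p-values adjusted over all 28735 models. The alternatives were edgeR 4.0.16 and DESeq2 1.42.0 on the whole reads, other scalings, pseudocounts, filters, a GC trend and left-out libraries. Pairs were tested by exact permutation. Lengths for values per kb are those of the longest coding transcript in GENCODE M21 (mm10), with all exons merged as an alternative chosen after seeing the data. Promoters are RefSeq windows. Replicates are numbered in the order of their records. The members, 3 partner lists and 9 marker lists were chosen with earlier results of these data known. 1 tested member, and 1 tested pair that holds it, are not reported here, though counts include them. Every other member passing the filter is named, with all values for called members and for those with a mean of at least 500 in either cell type, and in each partner list the 2 largest rises and 2 largest falls.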

Additional observations from a re-analysis of the deposited data

Results flagged for a closer look

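In 94 checks of a member in 4 libraries of a cell type, 7 had 1 library far from the other 3, by Dixon's test at its 95% critical value. Chance flags about 1 in 20 such groups. Spermatid library 2 was the odd one in 4 of them: it was lowest for Myh1, at 2.80 normalized counts, where the others had 13.1 to 15, and highest for Myh13 (81.3, others 41.4 to 43.5), Myo9a (2476, others 1650 to 1754) and Mylk4 (323, others 143 to 162). Spermatocyte library 4 was highest for Myo19 (3773, others 2329 to 2485) and lowest for Myo3a, at 0, where the others had 3.93 to 5.64. Spermatocyte library 3 was lowest for Myo1e (22.4, others 38.7 to 42.2).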

How the results depend on the processing

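Of the 26 called members, 19 kept their call under all 21 alternatives in which they were tested (14 higher, 5 lower); Myh6, Myh11, Myo16, Myh13, Myl1, Mylk and Myo7a lost it under at least 1. Members called higher ranged over the alternatives between 14 and 20 and lower between 7 and 12. Scaling to equal total reads moved the median of all models to -0.44, quantile normalization to -0.36 and removal of a GC trend to -0.26 (from 0.25 among models with a GC value), and under the first 2 settings 14 members were higher and 12 lower, with Myo18a (-1.10 and -1.06), Myo19 (-1.26 and -1.20) and Myo9a (-1.10 and -1.04) newly lower and Myh6, Myh11 and Myo16 no longer called. Over all models the split moved to 7990 higher and 10746 lower with equal totals, 8352 and 10417 with quantile normalization, and 5263 and 5817 with the GC trend removed, beside 9333 and 8563. Only uncalled members changed sign. With equal totals these were Myh4 (-0.00226), Myl12a (-0.31) and Myo5a (-0.40), with quantile normalization Myl12a (-0.25) and Myo5a (-0.30), with the GC trend removed Myl12a (-0.28) and Myo5a (-0.54), and with edgeR Mylk4 (0.000427). Without spermatocyte libraries 3 and 4 they were Myl6b (0.11), Myo10 (0.33), Myo9b (0.049) and Myo6 (0.30). Leaving out 1 library at a time, the log2 fold change ranged from -0.43 to 0.0204 for Myh7, from -0.036 to 0.29 for Myl12a, from -0.21 to 0.26 for Myo5a, from -0.41 to 0.18 for Myo6 and from -0.35 to 0.042 for Mylk4.

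The phosphatase and kinase list had 2 members called higher with equal totals and 3 with either quantile normalization or the GC trend removed, and 12 called lower with the GC trend removed. The folding and filament list had 3 called higher with equal totals or the GC trend removed, and 4 called lower with equal totals, 4 with quantile normalization and 5 with the GC trend removed. The cause was not tested. Of the partners named after their values were seen, Mprip, Rock1 and Ush1g were no longer called with equal totals (0.73, 0.69 and 0.85), quantile normalization (0.67, 0.68 and 0.88) or the GC trend removed (0.79, 0.18 and 0.94), and Rock1 (0.61), Espn (-0.89) and Cdhr5 (-0.84) without spermatocyte libraries 3 and 4. Uncalled ones changed sign: Ppp1r12b with equal totals (-0.42), quantile normalization (-0.33), the GC trend removed (-0.34) and DESeq2 (-0.0113), Rab11a with the first 3 (-0.33, -0.43 and -0.91) and without spermatocyte libraries 3 and 4 (-0.065), Mlph with equal totals (-0.13) and Rock2 with the GC trend removed (-0.40). Leaving out 1 library, Ppp1r12b ranged from -0.094 to 0.18, Rab11a from -0.12 to 0.21 and Mlph from -0.054 to 0.81. These settings were applied to these partners after seeing the data. With all exons merged as the length, 10 of 24 shares per kb moved by more than 1 SD. On the recovered whole reads edgeR called 9272 models higher and 8634 lower. TMM, edgeR, DESeq2, the pseudocounts and the filters moved no count of members by over 1.5 times. With 7 libraries the smallest possible exact permutation p was again 0.0286, and the smallest adjusted p of the pairs was 0.05 to 0.0667. No paired analysis was possible because the labels give no replicate numbers shared by the cell types.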
